A study of Mus musculus with 4 samples.

Results

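The 9 genes described here code for redox enzymes. Apart from Cbr3, a carbonyl reductase, these enzymes use glutathione or thioredoxin to remove peroxides and reactive compounds, or keep those small thiol systems reduced. The genes were chosen by symbol (Gpx3, Gsr, Gstm1, Gsto1, Mgst1, Prdx1, Prdx6, Txnrd1 and Cbr3). All 9 were found among the 17896 genes in the 4 tables of the series. The choice was made with earlier results of these data known. Single-cell RNA sequencing had been done on the ventral prostate lobes of wild-type C57BL6j mice, 2 in a group labelled sham and 2 in a group labelled te2. Hormone pellets had been implanted and the lobes taken 2 weeks later; the labels do not spell out the code te2, the agent or dose in the pellets, what the sham mice received, or the age of the mice. Each library is 1 animal, with both lobes pooled in 1 tube, dissociated with a cold-active protease of Bacillus licheniformis, and loaded as 7000 cells on a droplet platform with 3' end counting by unique molecular identifiers (UMIs).

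Glutathione is the main small thiol of cells. Glutathione peroxidases and transferases spend it on hydroperoxides and electrophiles, and glutathione reductase returns the oxidised form to the reduced one with NADPH. Peroxiredoxins remove peroxides with a reactive cysteine that is recharged by thioredoxin or glutathione, and thioredoxin reductase recharges thioredoxin. Many genes of both systems can be switched on through the transcription factor NRF2, and the secretory epithelium of the prostate is androgen dependent.

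Cells with at least 500 UMIs and at most 20% mitochondrial counts were kept, 8091 of 11245, and put into 5 classes by the share of UMIs from a few genes. Luminal cells had at least 10% from Sbp and Spink1, the secretory products of the lobe. The other classes were then taken in turn: basal (Krt5, Krt14 and Krt15, 0.2%), fibroblast (Col1a2, Col3a1 and Dcn, 0.3%), macrophage (C1qa, C1qb and C1qc, 0.3%) and proximal (Krt4, Wfdc2 and Cxcl17, 0.1%). Of 5 further markers checked per class, all 5 were highest in the named class for basal cells, fibroblasts and macrophages, and 4 of 5 for proximal cells. The remaining proximal check gene, Psca, was highest in luminal cells. Among the luminal check genes Hoxb13 was highest in luminal cells, while Msmb and Krt8 were highest in proximal cells and Tgm4 in fibroblasts, so "luminal" here means cells rich in Sbp and Spink1. Their share of kept cells was 64.5% and 64.1% in sham mice but 16.9% and 23.0% in te2 mice. The sham libraries held 3999690 and 5513275 UMIs, the te2 libraries 12259610 and 13134017, and any pair of libraries shared 1 to 5 cell barcodes. The smallest classes were in sham replicate 1, with 35 proximal and 44 basal cells.

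Since cells of 1 animal are not replicates, the counts of each class were added up within a library. Expression is given as CPM, the usual depth-scaled unit in which a gene's summed count is set against the class total, scaled by edgeR's TMM factor except where scaling by totals is named. Changes are log2 ratios of te2 over sham with standard errors (SE) from edgeR's quasi-likelihood test; "rose" and "fell" mean an FDR below 0.05 over all genes tested in that class. With 2 animals a group the smallest p of an exact permutation test is 0.3333, and the p-values of edgeR lean on a spread shared across genes.

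In luminal cells 7 of the 9 genes rose in te2 mice and none fell, with Gpx3, Gsr, Gsto1 and Mgst1 at 8.78, 7.51, 9.39 and 8.80 times the sham mean. Over all genes tested in luminal cells 32.1% passed: 18.0% rose and 14.1% fell (1977 and 1543 of 10976). The median log2 change was 1.71 over the 9 genes and -0.01 over all genes. Since the 9 were chosen with earlier results of these data known, this contrast is a description and no test of the set.

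The peroxide-removing enzymes came first in level. Gpx3 codes for the secreted, selenium-containing glutathione peroxidase that is also the plasma form. It stood at 285 CPM in sham replicate 1 and 591 in sham replicate 2, against 4100 and 3593 in the te2 replicates. The groups did not overlap, and the log2 change was 3.13 ± 0.26 (adjusted p = 1.70e-06). Prdx1, a cytosolic peroxiredoxin recharged by thioredoxin, rose from 485 and 510 to 1150 and 1194 CPM, a log2 change of 1.24 ± 0.13 (adjusted p = 1.05e-05). Prdx6, a peroxiredoxin that uses glutathione and also has phospholipase activity, rose little, from 597 and 506 to 731 and 755 CPM. Its log2 change of 0.43 ± 0.13 (adjusted p = 0.0220) was lost without sham replicate 2 (0.33, adjusted p = 0.106) and without te2 replicate 2 (0.40, adjusted p = 0.101), and it passed in 10 of 12 alternative settings, with adjusted p from 0.00318 to 0.106.

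The reductases split. Gsr, the glutathione reductase, was even within each group, at 38.8 and 37.6 CPM in sham and 296 and 277 in te2, and rose by 2.91 ± 0.14 (adjusted p = 8.55e-09). Txnrd1, the cytosolic thioredoxin reductase, stood at 28.3 and 25.9 CPM in sham and 40.7 and 33.9 in te2. Its groups did not overlap, but the log2 change of 0.46 ± 0.17 did not pass (adjusted p = 0.0531; 4 of 12 alternatives passed, with adjusted p from 0.0267 to 0.301). Cbr3, a carbonyl reductase that uses NADPH to reduce ketones and quinones, rose from 10.8 and 12.2 to 38.1 and 37.7 CPM, a change of 1.71 ± 0.19 (adjusted p = 1.69e-05).

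The transferases split as well. Gsto1, an omega-class enzyme that reduces mixed disulfides and dehydroascorbate, rose from 12.9 and 13.5 to 115 and 133 CPM (3.23 ± 0.17, adjusted p = 1.63e-08). Mgst1, a membrane-bound transferase of the endoplasmic reticulum and mitochondria with peroxidase activity, rose from 8.73 and 6.61 to 73.5 and 61.5 CPM (3.15 ± 0.20, adjusted p = 1.59e-07). Scaled by totals, its luminal mean stayed below that of macrophages, at 7.47 against 110 CPM in sham and 68.7 against 113 in te2, where the libraries overlapped. The part of RNA from other cells in this low luminal level was not tested. Gstm1, a cytosolic mu-class enzyme, stood at 115 and 157 CPM in sham and 118 and 84.2 in te2, and the groups overlapped. Its log2 change was -0.44 ± 0.18 (adjusted p = 0.0743). It passed without sham replicate 1 (-0.64, adjusted p = 0.00374), without te2 replicate 1 (-0.68, adjusted p = 0.00643) and without a filter on low counts (-0.39, adjusted p = 0.0459), and its highest adjusted p was 0.501. Gstm1 belongs to a cluster of near copies and Prdx6 has a close copy too, and how reads shared by such copies were counted is not given in the sources used here.

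Other things moved with these changes. The median UMIs per luminal cell were 1551 and 2455 in sham and 8265.5 and 10359 in te2. With the summed counts thinned to equal totals the same 7 genes passed. Luminal sums ranged only from 2972401 to 4946980 UMIs over the libraries, so this thinning did not address depth per cell. The part of depth per cell in these fits was not tested. Scaled by totals, the 3 genes of the proximal rule, all detected, summed to 15.8 and 31.4 CPM in sham luminal cells and 243 and 183 in te2 luminal cells. On the same scale the 5 proximal check genes summed to 280 and 293 CPM in sham and 2118 and 2252 in te2. This sum includes Psca, which was highest in luminal cells, so it is no measure of proximal cells alone. The part of these genes in the luminal results was not tested.

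**Figure D1:**
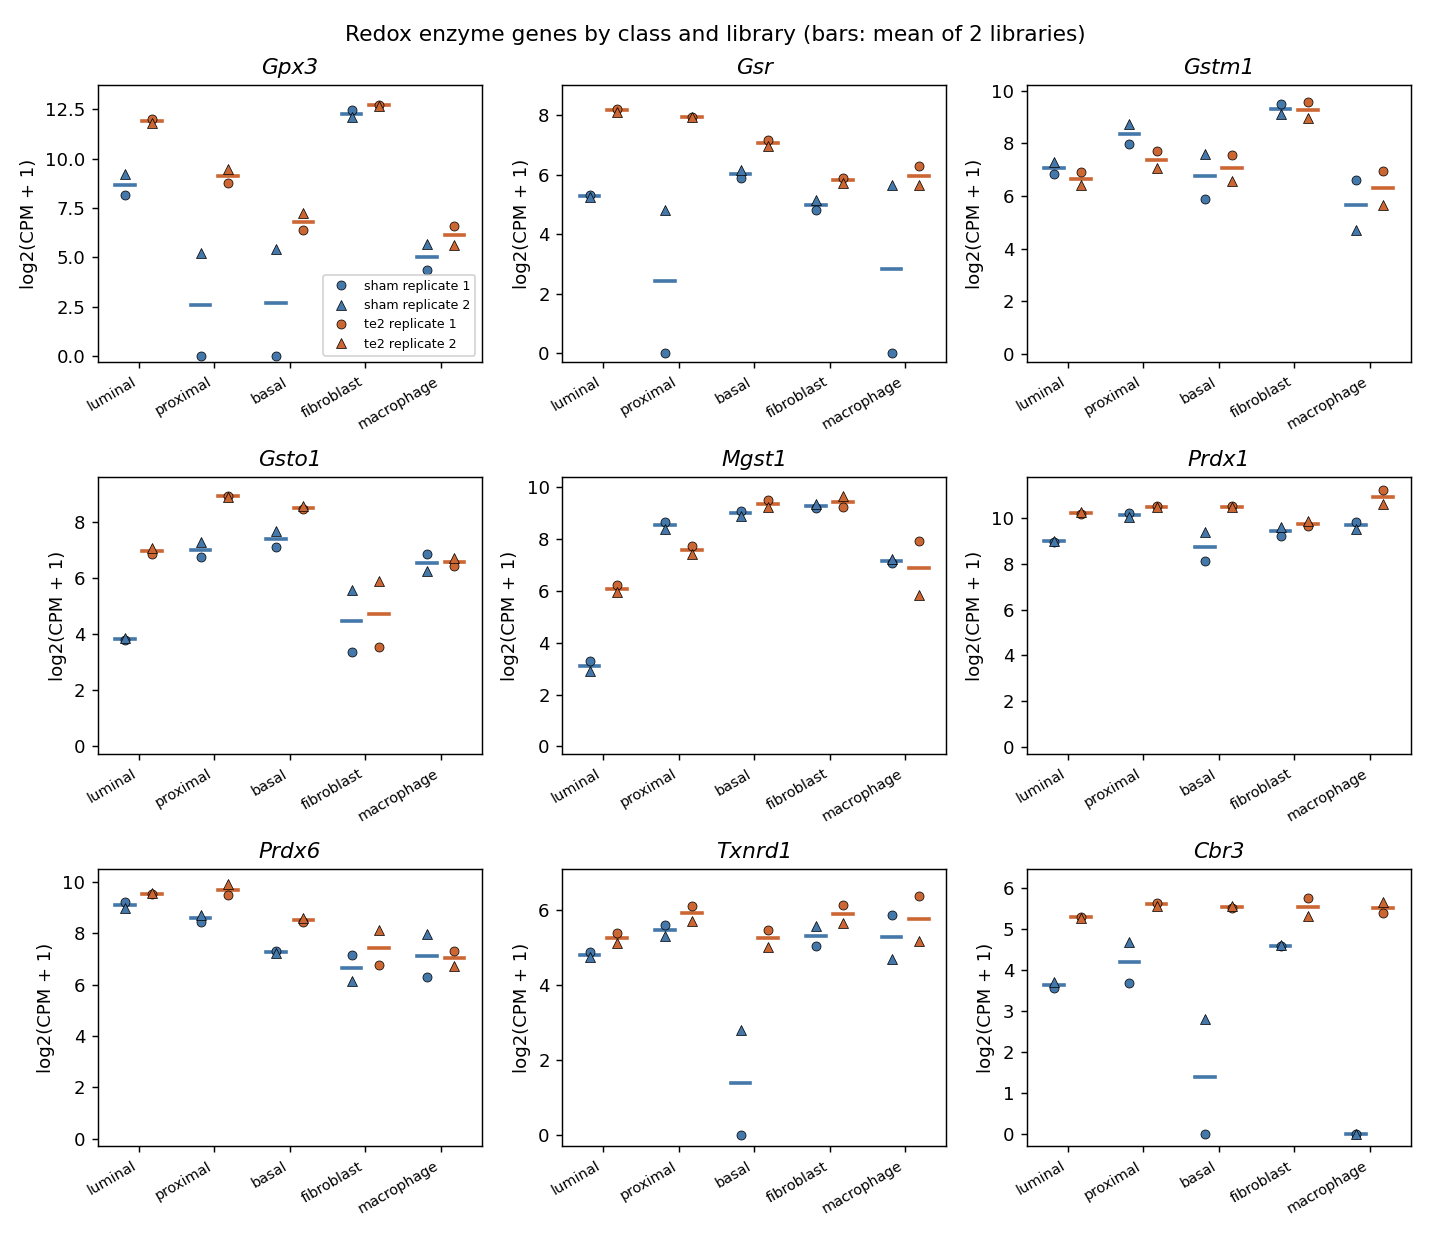
Level of each of the 9 genes, as log2(CPM + 1) with TMM scaling, in 5 classes; each symbol is 1 library (circle replicate 1, triangle replicate 2, blue sham, orange te2) and each bar the mean of 2 libraries. Gpx3 in luminal cells goes from 285 and 591 CPM to 4100 and 3593, while Mgst1 is lower in te2 in proximal cells and higher in luminal cells.

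The promoters of 3 genes that rose in luminal cells are shown. Over all classes and libraries their levels did not follow one another (r = -0.09 for Gpx3 with Mgst1, 0.06 for Gpx3 with Prdx1 and 0.12 for Mgst1 with Prdx1). RefSeq promoters (250 bases before to 50 after a start, build GRCm38.p6, plus strand, 5' to 3') were matched for 7 of the 9 genes, 11 promoters in all; Gsr and Prdx6 had no entry. The motifs searched on both strands were the core TGACNNNGC of the element bound by NRF2, and TGANTCA, the site of AP-1, another stress-response factor. Capitals mark the matches, and the ones below are numbered from base 1 at the 5' end.
Gpx3, chr11:54902604-54902903: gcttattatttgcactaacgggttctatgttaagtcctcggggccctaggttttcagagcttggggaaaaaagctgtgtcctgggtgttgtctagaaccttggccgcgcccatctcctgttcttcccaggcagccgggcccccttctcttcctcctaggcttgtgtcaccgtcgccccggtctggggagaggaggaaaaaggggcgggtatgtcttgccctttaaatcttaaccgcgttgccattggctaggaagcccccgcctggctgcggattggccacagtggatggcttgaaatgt
Mgst1, chr6:138140277-138140576: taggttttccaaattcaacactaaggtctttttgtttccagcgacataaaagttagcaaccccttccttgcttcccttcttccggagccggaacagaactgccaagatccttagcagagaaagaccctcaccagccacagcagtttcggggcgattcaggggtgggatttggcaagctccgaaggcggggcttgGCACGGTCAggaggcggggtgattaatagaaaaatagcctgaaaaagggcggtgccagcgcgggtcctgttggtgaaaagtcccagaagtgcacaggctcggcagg
Prdx1, chr4:116685349-116685648: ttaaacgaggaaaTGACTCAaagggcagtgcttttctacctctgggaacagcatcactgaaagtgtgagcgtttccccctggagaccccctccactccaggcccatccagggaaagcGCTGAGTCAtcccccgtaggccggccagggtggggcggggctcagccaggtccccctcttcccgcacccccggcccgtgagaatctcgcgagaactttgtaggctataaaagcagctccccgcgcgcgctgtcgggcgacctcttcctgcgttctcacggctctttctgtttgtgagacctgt
The first of 2 Mgst1 starts, shown here, held 1 match to TGACNNNGC, GCACGGTCA at base 195 on the minus strand. The Prdx1 promoter held 1, GCTGAGTCA at base 118, and 2 matches to TGANTCA, at bases 14 and 120; the match at base 120 lies inside the one at base 118. The second of 3 Txnrd1 starts held GCTTTGTCA at base 159 (chr10:82858956-82859255). No match to either motif lay in these windows of Gpx3, Gstm1, Gsto1 or Cbr3. Of all 32851 promoters of this length, 12.4% held TGACNNNGC and 7.81% held TGANTCA, so such matches are common. A match is a string of letters, and no binding was measured.

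In proximal cells 4 of the 9 genes rose (Gpx3, Gsr, Gsto1 and Prdx6) and 2 fell (Gstm1 and Mgst1), against 10.3% of all 10068 genes tested (5.53% higher, 4.78% lower). Gpx3 was at 0 CPM in sham replicate 1 and 35.7 in sham replicate 2, and at 432 and 715 CPM in te2. Gsr was at 0 and 27.4 CPM in sham and 249 and 244 in te2. Both rose, with fitted log2 changes of 4.32 ± 0.36 (adjusted p = 5.48e-18) and 3.47 ± 0.35 (adjusted p = 7.00e-14). These sizes rest on sham replicate 2: without it sham is at 0 and the fits give 13.29 and 12.08, which measure nothing, while both calls held in 12 of 12 alternatives. Gsto1 rose from 108 and 154 to 487 and 481 CPM (1.76 ± 0.24, adjusted p = 2.05e-08), also in 12 of 12. Prdx6 rose from 347 and 425 to 712 and 961 CPM (1.06 ± 0.24, adjusted p = 0.000897), a call lost only without te2 replicate 2 (0.84, adjusted p = 0.327, the highest of its 12 alternatives).

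Mgst1 and Gstm1 went down in the same cells. Mgst1 fell from 407 and 340 to 210 and 172 CPM, a log2 change of -0.91 ± 0.20 (adjusted p = 0.000437). The call was lost without sham replicate 2 (-1.03, adjusted p = 0.0561), without te2 replicate 1 (-1.07, adjusted p = 0.0671), without te2 replicate 2 (-0.81, adjusted p = 0.348) and with thinned sums (-0.79, adjusted p = 0.252). Gstm1 fell from 251 and 428 to 209 and 132 CPM (-1.14 ± 0.20, adjusted p = 1.19e-05). That call was lost without sham replicate 2 (-0.50, adjusted p = 0.620), without te2 replicate 2 (-0.80, adjusted p = 0.347), with DESeq2 (-1.05, adjusted p = 0.122) and with thinned sums (-0.75, adjusted p = 0.188). Both kept their direction in all 12 alternatives.

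Prdx1, Txnrd1 and Cbr3 did not pass in proximal cells. Prdx1 stood at 1172 and 1054 CPM in sham and 1433 and 1398 in te2, a log2 change of 0.36 ± 0.26 (adjusted p = 0.443). Txnrd1 had a change of 0.58 ± 0.36 (adjusted p = 0.338). Cbr3 stood at 11.96 and 24.7 CPM in sham and 49.0 and 46.5 in te2 (1.11 ± 0.44, adjusted p = 0.0921).

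The proximal class also shifted in depth and markers: median UMIs per cell were 1849 and 1645 in sham and 5131 and 6591 in te2. Scaled by totals, the 3 basal rule genes, all detected, summed to 40.6 and 103 CPM in sham proximal cells and 458 and 352 in te2 ones, and the 5 basal check genes to 13.5 and 12.8 against 12.5 and 20.05. Their part in the proximal results was not tested.

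Luminal RNA in the droplets of other cells was gauged by Sbp and Spink1. Cells with at least 10% of UMIs from these genes are luminal by the rule, so their share in other classes is capped. The gauge can therefore understate luminal RNA, whose part in the results was not tested. Scaled by totals, the summed level of Sbp and Spink1 in proximal cells was 0.0499 and 0.0714 of that in luminal cells in sham, and 0.0283 and 0.0319 in te2. For Gpx3 the same ratio was 0 and 0.0571 in sham, at or below the Sbp and Spink1 ratio, and 0.0954 and 0.192 in te2, above it. For Mgst1 it was 54.7 and 48.7 in sham and 2.58 and 2.71 in te2, since luminal cells held less of it than proximal cells in every library.

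In basal cells 5 of the 9 genes passed as higher in te2 (Gpx3, Gsto1, Prdx1, Prdx6 and Cbr3) and none as lower, against 7.71% of all 9132 genes (4.94% higher, 2.77% lower). Prdx1 was the firmest, rising from 275 and 654 to 1431 and 1394 CPM (1.42 ± 0.27, adjusted p = 0.000398). It passed in 12 of 12 alternatives, with a change of 2.44 without sham replicate 2. Prdx6 rose from 157 and 149 to 344 and 387 CPM (1.28 ± 0.29, adjusted p = 0.00301), but 6 of 12 alternatives lost it, with adjusted p up to 0.187. Among these were the fits without sham replicate 2 (1.30), te2 replicate 1 (1.31) and te2 replicate 2 (1.13).

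The other basal calls were weaker. Gsto1 rose from 138 and 202 to 354 and 376 CPM (0.98 ± 0.28, adjusted p = 0.0191), and 8 of 12 alternatives lost the call, with adjusted p up to 0.431. Leaving out any 1 library lost it, with changes of 0.89 and 1.49 without sham replicates 1 and 2, and 1.004 and 0.92 without te2 replicates 1 and 2. Gpx3 was at 0 and 41.6 CPM in sham and 82.4 and 149 in te2 (1.87 ± 0.54, adjusted p = 0.0213), lost in 7 of 11 alternatives with adjusted p up to 0.238. These included the fits without sham replicate 1 (1.52) and te2 replicate 2 (1.34); without sham replicate 2 no sham count is left. In these cells Gpx3 was at 0 and 0.0654 of its luminal level in sham and 0.0181 and 0.0393 in te2, and Sbp and Spink1 at 0.111 and 0.116 in sham and 0.00942 and 0.0189 in te2. Fibroblasts, the class with the most Gpx3, were gauged by their 5 check genes, scaled by totals. These summed to 66.2 and 43.7 CPM in sham basal cells and 29.7 and 52.2 in te2 ones. In fibroblasts they summed to 3942 and 4005 in sham and 5783 and 5942 in te2. The part of luminal or fibroblast RNA in basal Gpx3 was not tested.

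Cbr3 and Txnrd1 had 1 sham count each in basal cells, so only a ratio of counts is given. Cbr3 had 138 counts in te2, a ratio per UMI of 9.69 (exact 95% interval 1.71 to 386, counting error only). Its adjusted p was 0.0323, lost in 5 of 8 alternatives (up to 0.291), including without sham replicate 1 (0.0790) and without sham replicate 2 (0.291). Txnrd1 had 113 counts in te2, a ratio of 7.94 (1.40 to 316), and did not pass (adjusted p = 0.0754). Gsr (58.9 and 71.3 CPM in sham, 143 and 123 in te2, adjusted p = 0.115), Mgst1 (550 and 475, then 722 and 605, adjusted p = 0.346) and Gstm1 (58.9 and 190, then 185 and 95.3, adjusted p = 0.853) did not pass either. With DESeq2 only 1 of the 9 genes passed in basal cells.

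The basal class itself differed between groups. Of its cells, 251 of 591 and 310 of 573 in te2 and 16 of 44 and 37 of 160 in sham also met another class rule. Without cells of several rules 1 gene passed; Gsto1 then had a change of 0.44 (adjusted p = 0.431) and Prdx6 of 0.70 (adjusted p = 0.187). Scaled by totals, the 3 proximal rule genes summed to 44.2 and 262 CPM in sham basal cells and 1215 and 813 in te2 basal cells, and beyond the fit without those cells their part was not tested. On the same scale the 3 basal rule genes summed to 3975 and 4410 CPM in sham basal cells and 8864 and 11884 in te2 ones. The 5 basal check genes summed to 795 and 988 CPM in sham and 1780 and 1714 in te2. The part of this marker shift in the basal results was not tested.

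Fibroblasts were the cells with the most Gpx3 in both groups, and none of the 7 genes tested there passed. Gpx3 stood at 5539 and 4423 CPM in sham and 6610 and 6568 in te2, a log2 change of 0.40 ± 0.21 (adjusted p = 0.344). Over all 4450 genes tested 2.07% passed: 0.764% were higher and 1.30% lower by edgeR (34 and 58, or 52 and 49 without TMM factors). At an unadjusted p under 0.05 the count of the 7 was 0, and DESeq2 called 0. Gstm1 (719 and 559, then 760 and 499 CPM) and Mgst1 (591 and 664, then 599 and 810 CPM) overlapped between groups. Prdx1 (595 and 780, then 797 and 914 CPM) did not overlap, with a change of 0.34 ± 0.23 (adjusted p = 0.463). Prdx6 (142 and 69.8, then 107 and 277 CPM) overlapped; it passed without te2 replicate 1 (1.28, adjusted p = 0.0269, the lowest of its 11 alternatives). Gsr and Txnrd1 had adjusted p of 0.426 and 0.553, and Gsto1 and Cbr3 were too low to test.

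Macrophages had enough counts to test 4 genes, and none passed, against 3.68% of all 2173 genes (1.93% higher, 1.75% lower). Prdx1 came nearest, at 902 and 724 CPM in sham and 2363 and 1561 in te2, without overlap. Its log2 change was 1.27 ± 0.34 (adjusted p = 0.0598). It passed in 4 of 12 alternatives, among them the fit without te2 replicate 2 (1.56, adjusted p = 0.00419), with adjusted p from 0.00243 to 0.287. It was also the 1 gene with an unadjusted p under 0.05, and DESeq2 called 0. Gsto1 (115 and 74.9, then 86.2 and 105 CPM), Mgst1 (134 and 150, then 245 and 56.3 CPM) and Prdx6 (76.8 and 250, then 159 and 105 CPM) overlapped between groups, with adjusted p of 0.982, 0.920 and 0.906. Cbr3, too low to test, had 0 sham counts and 16 te2 counts, at 40.8 and 49.2 CPM in te2, so the groups did not overlap. The exact 95% lower limit of its ratio per UMI was 0.964, so a difference was not established at this depth. For Gpx3, 3 sham counts stood against 28 te2 counts, a ratio per UMI of 2.33 (0.721 to 11.99), and for Gsr 2 against 24, a ratio of 3.00 (0.745 to 26.2). Gstm1 and Txnrd1 were too low to test and overlapped.

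**Figure D2:**
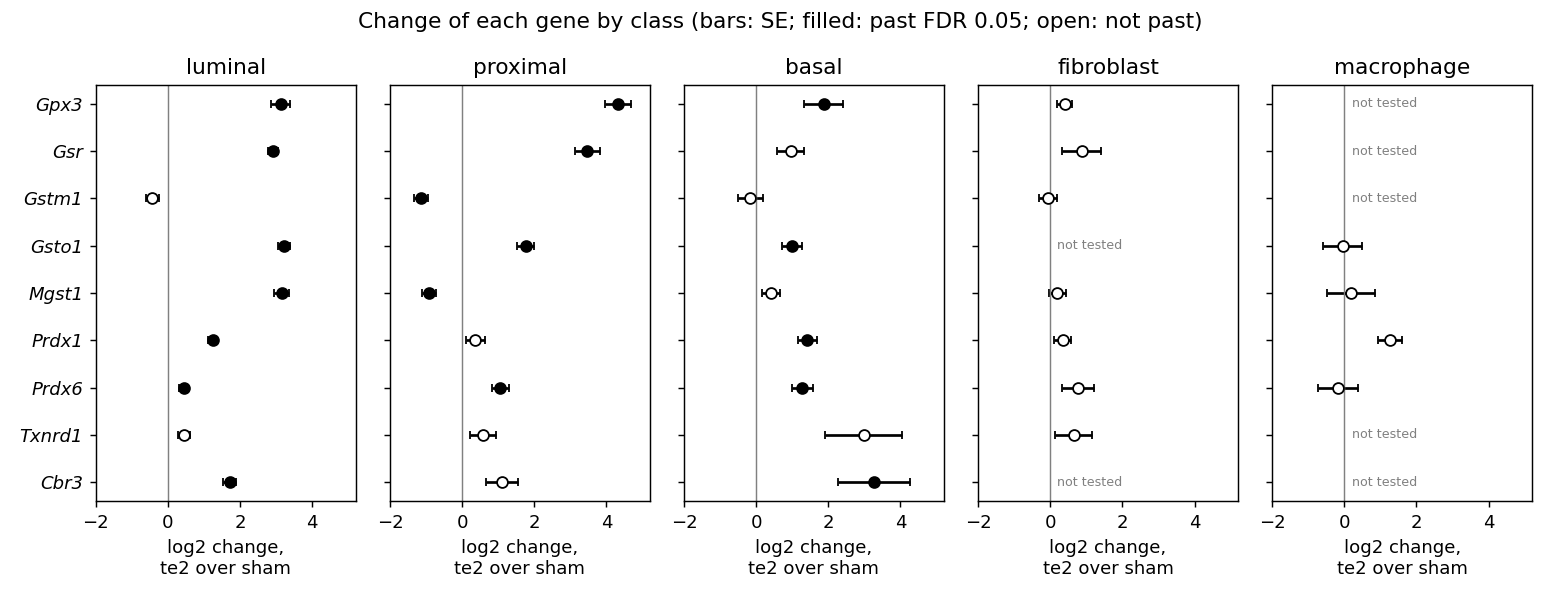
Fitted log2 change of te2 over sham for each gene in each class, with bars of 1 SE; filled points are past FDR 0.05 and open points are not. Luminal cells have 7 filled points to the right, proximal cells 4 to the right and 2 to the left; the Txnrd1 and Cbr3 points in basal cells rest on 1 sham count each and give no size.

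Whether the te2 change of a gene differed between classes was tested directly, with library as a block, for 9 genes in 5 pairs of classes. Of the 45 differences 15 passed. Mgst1 stood out in all 5: its change was lower than in luminal cells by a log2 difference of -4.08 ± 0.27 in proximal cells (adjusted p = 1.30e-49), -2.68 ± 0.30 in basal cells (1.59e-15), -2.82 ± 0.31 in fibroblasts (3.51e-16) and -2.61 ± 0.65 in macrophages (0.00989), and lower in proximal than in basal cells by -1.42 ± 0.24 (2.64e-06). The first 3 passed in 11 of 11 alternatives. All differences set against luminal cells share the luminal rise of Mgst1, at a level below the macrophage mean, so they are not separate results. The macrophage difference was lost in 5 of 11 (adjusted p up to 0.404), including without sham replicate 1 (-2.83), sham replicate 2 (-2.37) and te2 replicate 2 (-2.01), and it was -3.91 without te2 replicate 1. The proximal to basal difference was lost in 2 of 11 (adjusted p up to 0.441), among them without sham replicate 2 (-1.37).

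The background for these pairs was 4.99% of 11757 genes for proximal against luminal (2.17% higher, 2.82% lower), 1.51% of 11935 for basal against luminal (0.980% higher, 0.528% lower), 2.28% of 11680 for fibroblast against luminal (1.35% higher, 0.925% lower), 1.09% of 11022 for macrophage against luminal (0.898% higher, 0.191% lower) and 2.01% of 10651 for proximal against basal (0.376% higher, 1.63% lower). Members past the test numbered 4, 3, 2, 2 and 4 in that order.

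Compared with luminal cells Gsto1 changed less in 3 of the 4 classes tested, by -2.12 ± 0.36 in basal cells (adjusted p = 1.35e-06), -1.40 ± 0.30 in proximal cells (0.000304) and -2.84 ± 0.74 in macrophages (0.0185); in fibroblasts the difference of -2.21 ± 0.81 did not pass (adjusted p = 0.153). The basal and proximal differences were lost without sham replicate 2 (-1.66 and -1.005) and without te2 replicate 2 (-1.94 and -1.24), with adjusted p up to 0.288 and 0.488. The macrophage difference was lost in 4 of 11 alternatives (adjusted p up to 0.634), including without sham replicate 1 (-2.36), te2 replicate 1 (-2.80) and te2 replicate 2 (-2.85). For Gpx3 the difference between fibroblasts and luminal cells was -2.69 ± 0.22 (adjusted p = 1.15e-29), past in 11 of 11 alternatives. Between proximal and luminal cells it was 1.47 ± 0.53 and did not pass (adjusted p = 0.0890).

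Prdx1 changed less in proximal than in luminal cells (-0.82 ± 0.22, adjusted p = 0.00521) and than in basal cells (-1.09 ± 0.23, 0.000223). Each was lost in 3 of 11 alternatives: the first without te2 replicates 1 (-0.86) and 2 (-0.77), the second without sham replicate 1 (-0.66) and te2 replicate 2 (-1.02), with adjusted p up to 0.714 and 0.288, and the second was -2.10 without sham replicate 2. Gsr changed less in basal than in luminal cells (-1.86 ± 0.51, adjusted p = 0.0220). This was lost in 6 of 11 alternatives, including without sham replicate 2 (-1.53), te2 replicate 1 (-1.90) and te2 replicate 2 (-1.71), with adjusted p up to 1. It changed more in proximal than in basal cells (2.48 ± 0.64, 0.00877), lost in 2 of 11 (up to 0.630), among them without sham replicate 2, where the 10.38 fitted rests on no sham proximal count.

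For Gstm1, proximal minus luminal was -0.60 ± 0.20 (adjusted p = 0.0481) and proximal minus basal -1.07 ± 0.31 (0.0362). The first was lost in 9 of 11 alternatives and the second in 11 of 11, with adjusted p up to 0.981 and 0.729. Leaving out any 1 library lost both; the first ran from -0.65 to -0.30 and the second from -1.80 to -0.79 over these fits.

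The order of the classes in each gene's level, scaled by totals, was read as a description. Gpx3 was highest in fibroblasts in both groups (4192 CPM ± 653, SD, n = 2, in sham and 5878 ± 33.6 in te2). Luminal cells came next (430 ± 219 and 3910 ± 468), followed in te2 by proximal (547 ± 201), basal (109 ± 45.1) and macrophage cells (54.9 ± 22.1), none overlapping. In sham the last 3 classes lay between 16.7 and 26.8 CPM and overlapped.

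Mgst1 was lowest in luminal cells in both groups, at 7.47 ± 1.33 and 68.7 ± 10.5 CPM (SD, n = 2), though in te2 they overlapped with macrophages (113 ± 96.5). It was highest in fibroblasts (528 ± 44.8 and 628 ± 132) and basal cells (527 ± 128 and 622 ± 74.7), which overlapped, as did basal and proximal cells in sham. The ratio of the basal to the luminal level was 70.6 in sham and 9.06 in te2. Gsto1 had basal cells on top in sham (170 ± 21.9) and proximal cells in te2 (459.5 ± 5.31), with luminal cells last in sham (12.9 ± 0.621, overlapping with fibroblasts) and above macrophages and fibroblasts in te2 (126 ± 9.08). Gstm1 was highest in fibroblasts in both groups (537 ± 93.8 and 562 ± 165), then in proximal cells (342 ± 82.4 and 161 ± 48.4), which overlapped with basal cells in te2.

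Gsr was highest in basal cells in sham (65.9 ± 0.535 CPM) and in luminal cells in te2 (291 ± 21.7), where proximal cells followed at 234 ± 1.57 and the other classes lay at or below 125. Prdx6 was highest in luminal cells in sham (538 ± 52.9), and in te2 the proximal (796 ± 184) and luminal cells (754 ± 2.87) overlapped. Prdx1 was highest in proximal cells in sham (1156 ± 240); in te2 macrophages (1497 ± 357) and proximal cells (1344 ± 3.82) overlapped, and fibroblasts were last (763 ± 72.6). Txnrd1 differed little between classes in te2, from 35.0 in basal to 56.5 CPM in proximal cells with neighbours overlapping. Cbr3 in te2 lay between 34.7 and 45.4 CPM in all 5 classes, against 0 to 19.4 in sham.

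Per cell, a Gpx3 UMI was found in a larger share of luminal cells in te2. Such a share rises with the mean level, so it cannot tell more cells with Gpx3 from a higher level in the same cells. With each cell thinned to 1000 UMIs, 16.7% (exact 95% interval 14.0 to 19.8) and 31.7% (28.9 to 34.7) of sham luminal cells had a Gpx3 UMI, against 80.5% (76.1 to 84.5) and 73.7% (69.4 to 77.7) of te2 luminal cells. The thinning left 651 of 1057, 1012 of 1292, 370 of 392 and 460 of 485 cells, and the intervals cover counting error only. Unthinned, the shares were 26.4%, 45.4%, 93.6% and 92.0%. Cells with 5 or more thinned Gpx3 UMIs made up 0% and 1.78% in sham and 36.2% and 28.7% in te2. In macrophages, taken as the background for free RNA, the share with a Gpx3 UMI was 4.55% and 0% in sham and 8.05% and 1.72% in te2, at median depths of 873.5, 785, 2088 and 1874 UMIs before thinning. In proximal cells it was 0% and 3.10% in sham and 19.7% and 19.4% in te2. The te2 shares stood above the macrophage ones in both libraries. Of the sham shares, the one of replicate 2 rests on 4 of 129 cells, against 0 of 15 macrophages. Scaled by totals, Sbp and Spink1 in te2 were at 0.00724 and 0.0215 of their luminal level in macrophages and 0.0283 and 0.0319 in proximal cells. In sham the ratios were 0.0897 and 0.150 in macrophages and 0.0499 and 0.0714 in proximal cells. Macrophages can thus understate luminal RNA in te2 proximal cells, whose part was not tested.

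Mgst1 went from 0.922% and 0.296% of luminal cells in sham to 8.38% and 6.09% in te2, and from 28.0% and 28.7% of proximal cells to 17.8% and 14.2%. In macrophages its share was 4.55%, 13.3%, 10.3% and 3.45% in the same order of libraries, from 22, 15, 87 and 58 cells, so no difference was read from the luminal shares.

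**Figure D3:**
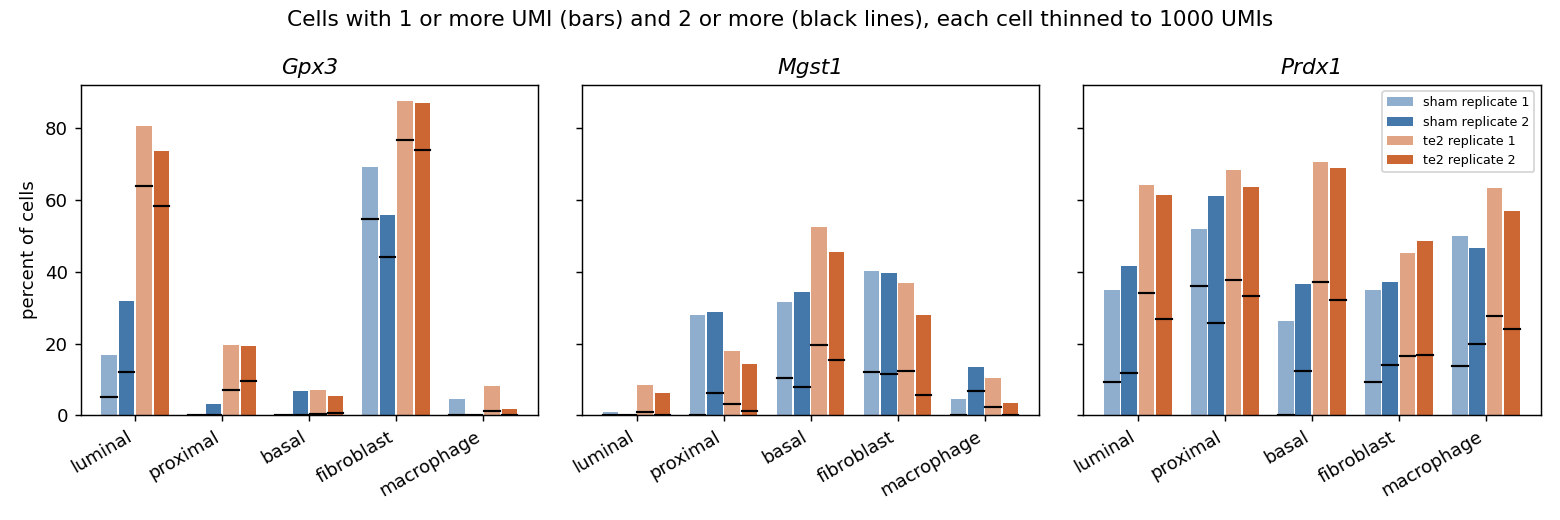
Percent of cells with at least 1 UMI (bars) or at least 2 UMIs (black lines) of Gpx3, Mgst1 and Prdx1 in each class and library, after thinning each cell to 1000 UMIs. Gpx3 bars in luminal cells go from 16.7% and 31.7% in sham to 80.5% and 73.7% in te2, while Mgst1 bars in luminal cells stay below 9%.

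The other genes of these pathways were taken from 12 lists with 98 genes. These lists too were chosen with earlier results of the data known, so their counts are a description and no test. In luminal cells 32 of the 78 tested rose and 3 fell, where 18.0% of all genes rose and 14.1% fell, with a median log2 change of 0.35 against -0.01 for all genes. In proximal cells 9 of 78 rose and 4 fell (all genes 5.53% and 4.78%), with a median of 0.13 against 0.06; the share that fell is near that of all genes. In basal cells 11 of 69 rose and 1 fell (all genes 4.94% and 2.77%), with a median of 0.42 against 0.09. In fibroblasts 1 of 48 rose (all genes 0.764%; median 0.28 against -0.01), and in macrophages 0 of 26 passed by edgeR (all genes 3.68%; median 0.34 against 0.03).

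In luminal cells all 4 other peroxiredoxins tested rose. Prdx5, found in mitochondria and peroxisomes, went from 84.1 and 73.8 to 288 and 299 CPM (1.90 ± 0.13). Prdx2, a cytosolic form, went from 134 and 140 to 389 and 387 (1.496 ± 0.12), and Prdx4, the form of the endoplasmic reticulum, from 20.9 and 30.9 to 100.3 and 100.0 (1.93 ± 0.17). Their adjusted p-values were 3.49e-07, 1.70e-06 and 2.85e-06, and all 3 passed in 12 of 12 alternatives. Of the carbonyl and quinone reductases 7 of 9 rose, those of smallest p being Cbr1 (0.72 ± 0.13), Cbr2 (0.69 ± 0.15) and Ptgr1 (0.86 ± 0.19).

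Of the other transferases 5 of 14 rose in luminal cells, among them Gstm5 (1.99 ± 0.15), Mgst3 (1.91 ± 0.18) and Gsta4 (2.37 ± 0.24), each past in 12 of 12 alternatives. In glutathione synthesis 3 of 5 rose, including Gclm, the modifier subunit of the rate-limiting ligase (0.71 ± 0.14). Among the thioredoxin genes 4 of 8 rose, including Txnip, an inhibitor of thioredoxin (0.83 ± 0.14), and Nxn (0.81 ± 0.15). Glutaredoxins Glrx5 (1.19 ± 0.14) and Glrx3 (0.73 ± 0.13) rose, 2 of 4, as did Sod2, the mitochondrial superoxide dismutase (1.44 ± 0.17), 1 of 3. In the NADPH list 3 of 10 rose, with Pgls (0.71 ± 0.13) at the smallest p, and in selenoprotein synthesis 1 of 7, Sephs2 (1.18 ± 0.25). With 18.0% of all luminal genes higher, counts such as 1 of 7, 1 of 3 and 3 of 10 are no result about those lists.

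The 3 that fell in luminal cells were Ggt1, which cleaves extracellular glutathione (-1.23 ± 0.18), Gpx1, the cytosolic glutathione peroxidase (-0.56 ± 0.13), and Sqstm1, the p62 adaptor that binds KEAP1 (-0.79 ± 0.13). Gpx1 stood at 295 and 334 CPM in sham and 215 and 212 in te2, the opposite direction from Gpx3. Gpx2, the epithelial form, rose at a low level, from 1.75 and 2.38 to 19.2 and 6.90 CPM (2.55 ± 0.53, adjusted p = 0.00226). None of the 7 NRF2 regulators tested rose, where 18.0% of all luminal genes did, so this count is no result about the list.

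In proximal cells Prdx2 rose (1.28 ± 0.24), as did Gstm7 (2.64 ± 0.44), Gstm5 (1.09 ± 0.26), Nxn (1.58 ± 0.34) and Gclm (0.90 ± 0.25). Gstt1, a theta-class transferase (-1.33 ± 0.25), Selenop, the selenium transport protein (-1.06 ± 0.20), and Idh2, a mitochondrial source of NADPH (-0.80 ± 0.23), fell. Gpx2 also fell there (-1.43 ± 0.23), but its sham level was 71.8 and 285 CPM and without sham replicate 2 the change was 0.32, and the call was also lost without te2 replicate 2. In basal cells Prdx2 (1.38 ± 0.28), Prdx5 (1.48 ± 0.31) and Cbr1 (2.32 ± 0.52) were among those that rose, and Nfe2l2, the gene of NRF2 itself, fell from 393 and 404 to 229 and 244 CPM (-0.76 ± 0.24, adjusted p = 0.0357), a call that 10 of 12 alternatives lost. Calls lost without sham replicate 2 were those of Gstm7 (fits from 2.52 to 2.86 over the alternatives), Gstm5 (0.98 to 1.84, also lost without te2 replicate 2), Nxn (1.53 to 1.68) and Gstt1 (-1.41 to -0.89) in proximal cells, and of Prdx5 (1.29 to 2.14) and Cbr1 (1.80 to 2.62) in basal cells. Selenop (-1.11 to -0.95) lost it without sham replicate 2 or either te2 replicate, and Gclm (0.79 to 1.55), Idh2 (-0.99 to -0.66) and the basal Nfe2l2 (-0.86 to -0.29) without any 1 library, whereas Prdx2 kept it with each library left out but lost it with thinned sums, at 0.71 in basal cells (adjusted p = 0.227) and 0.81 in proximal cells (adjusted p = 0.135). Of the genes named by the rule, 11 of 12 in basal, 11 of 12 in proximal and 6 of 27 in luminal cells lost the call when some 1 library was left out, and those that passed in every alternative numbered 21 of 27 in luminal, 0 of 12 in basal and 0 of 12 in proximal cells. In fibroblasts Prdx5 rose (1.56 ± 0.34, adjusted p = 0.0364), a call lost without sham replicate 1.

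**Figure D4:**
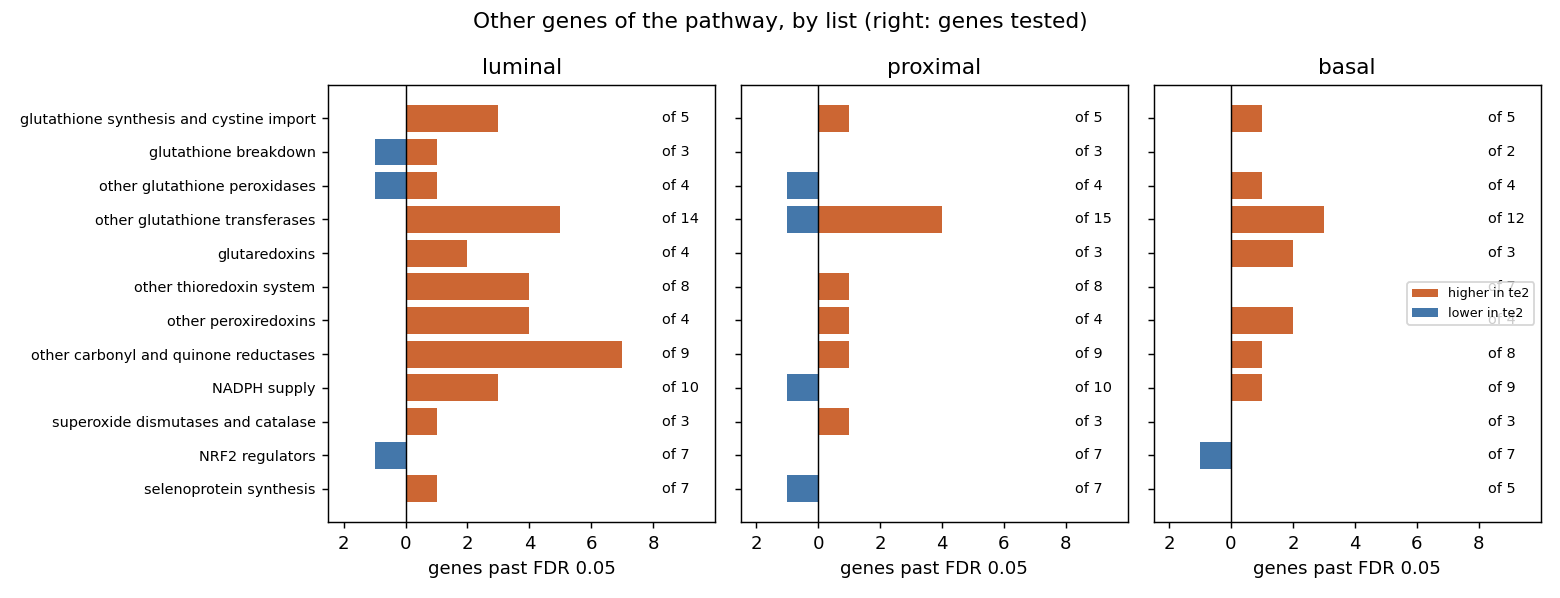
Number of genes past FDR 0.05 in each of the 12 pathway lists in luminal, proximal and basal cells, to the right for genes higher in te2 and to the left for lower ones, with the number tested printed at the right. In luminal cells the carbonyl and quinone reductases have 7 of 9 higher and the other peroxiredoxins 4 of 4.

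The genes whose level followed each of the 9 most closely were ranked by Pearson's r of log2(CPM + 1) over 20 sums (4 libraries by 5 classes) among 7123 genes. This is a description over points that share libraries and depth, with no test. The closest were S1pr3 for Gpx3 (r = 0.82), Eif3m for Gsr (0.89), Osr1 for Gstm1 (0.89), Atpif1 for Gsto1 (0.90), Man1a2 for Mgst1 (0.93), Tmem14c for Prdx1 (0.91), Cmtm8 for Prdx6 (0.92), Zzef1 for Txnrd1 (0.93) and Mtx1 for Cbr3 (0.97). Among the 9 genes themselves r ran from -0.37 (Gpx3 with Gsto1) to 0.67 (Prdx1 with Cbr3).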

How the data were processed

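Per the submitters' processing notes, the authors worked with R 4.3.2, Seurat 5.0.1, bustools 0.39.4 and kallisto 0.46.1 on genome build GRCm39; the role of each tool is not given in the sources used here. In the deposited files each value is an unnormalised UMI count of a gene in a cell, and each file lists only genes seen in its library, so a gene missing from a file was entered as 0. Each library is 1 animal, per the labels. Scrublet, as run by scanpy 1.11.5, marked 97 of the 8091 kept cells (1.20%) as doublets, which stayed in; 793 cells (9.80%) met several class rules and took the first in order. The members and gene lists were chosen with earlier results of these data known.

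Sums of counts over the cells of a class in a library were tested with edgeR 4.0.16 (quasi-likelihood, TMM, filterByExpr, two-sided, Benjamini-Hochberg, FDR 0.05); SE is the absolute change over the square root of F. A class needed at least 20 cells in every library. Differences between classes were the term of class by te2 with library as a block. The procedure was tested on simulated data. The alternatives were no TMM factors, DESeq2 1.42.0, no filter on low counts, the replicate number as a block, each library left out, doublets left out, cells of several rules left out, sums thinned to equal totals and 1000 UMIs as the minimum. Where 1 library was left out, the lone animal of a group was assumed to vary like the other group. The text names, from each other list, class and direction, at most the 3 genes of smallest p past the FDR. Likeness used genes with a mean of at least 20 CPM listed in all 4 tables. Promoters are from RefSeq. The value of 1 luminal check gene is not reported here.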

Additional observations from a re-analysis of the deposited data

Results flagged for a closer look

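For 15 combinations of a gene and a pair of classes the te2 change passed the test of the difference itself. Not all held under the alternatives, as given above. Gstm1 passed in 2 of 11 for proximal minus luminal and in 0 of 11 for proximal minus basal, and Gsr in 5 of 11 for basal minus luminal. Basal minus luminal was -1.86 for Gsr, -2.12 for Gsto1 and -2.68 for Mgst1 on the log2 scale. Proximal minus luminal was -0.60 for Gstm1, -1.40 for Gsto1, -4.08 for Mgst1 and -0.82 for Prdx1. Proximal minus basal was 2.48 for Gsr, -1.07 for Gstm1, -1.42 for Mgst1 and -1.09 for Prdx1. Fibroblast minus luminal was -2.69 for Gpx3 and -2.82 for Mgst1, and macrophage minus luminal was -2.84 for Gsto1 and -2.61 for Mgst1. For Mgst1 in proximal against luminal cells the single-class changes have opposite signs, -0.91 and 3.15.

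Cells that met no class rule entered no comparison. Scaled by totals, the sham and te2 means there were 589 and 1544 CPM for Gpx3, 30.9 and 230.2 for Gsr, and 54.8 and 268.4 for Gsto1. They were 577 and 1168 for Prdx1, 418 and 803.6 for Prdx6, 35.3 and 51.89 for Txnrd1, and 13.5 and 38.09 for Cbr3. For these genes both te2 libraries lay above the sham ones. Gstm1 (153.7 and 145.5) and Mgst1 (159.8 and 130.9) overlapped. The share of all genes without overlap in these cells was not counted, so this is no result about the members. The sham libraries differed widely in these cells for Gpx3, at 22.4 and 1155 CPM, against 1891 and 1197 in te2. For Gsr they were close, at 31.9 and 29.9 against 233 and 227. Marker levels in these cells moved too. The 5 proximal check genes, Psca among them, summed to 549.6 and 482 CPM in sham and 2562 and 3036 in te2. The part of this shift in these values was not tested. Groups of 2 libraries are too small to look for a sample that stands apart.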

How the results depend on the processing

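Of the members' te2 changes under the alternatives, 357 kept their direction and side of the threshold. The call was lost in 37 and gained in 13, and 17 changed sign. The differences between classes counted here were the 15 past the test, with Gpx3 and Gsr in proximal minus luminal and Prdx1 in basal minus luminal. Among their fits 145 were kept, 50 lost and 3 gained, and none changed sign. Genes from the other lists kept the call in 488 fits, lost it in 118 and changed sign in 1 (Gpx2 in proximal cells, 0.32 without sham replicate 2). No member past the test changed sign. With DESeq2 Gstm1 in basal cells gave 0.029; without TMM factors Gstm1 in fibroblasts gave 0.025. Without a filter the values were 0.067 for Gstm1 in fibroblasts, 0.32 for Gsto1 and 0.19 for Prdx6 in macrophages. At 1000 UMIs they were 0.19 for Gstm1 in fibroblasts and -0.24 for Mgst1 in macrophages, and without doublets -0.27 for Mgst1 in fibroblasts. With 1 library left out, Gstm1 ran from -0.71 to 1.33 in basal cells and from -0.33 to 0.26 in fibroblasts. In fibroblasts Mgst1 ran from -0.021 to 0.42 and Prdx6 from -0.10 to 1.56; in macrophages Gsto1 ran from -0.18 to 0.45 and Prdx6 from -0.76 to 0.91; in proximal cells Gpx2 ran from -1.71 to 0.32. Their cause was not tested.

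Counts of all genes past the test depended on the tool. DESeq2 gave 1853 in luminal (edgeR 3520), 153 in basal (704), 34 in macrophage (80) and 270 in proximal cells (1038). Thinned sums gave 124 in basal, 4 in fibroblasts (92), 14 in macrophages and 136 in proximal cells, with fewer counts by construction. No filter gave 249 in fibroblasts and 183 in macrophages, 1000 UMIs 56 and 14, and cells of several rules left out 346 in basal cells. Leaving out 1 library gave 145 to 369 in basal, 107 to 211 in fibroblast, 53 to 154 in macrophage and 234 to 678 in proximal cells.

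For members past the test, basal cells kept 1 with DESeq2, without cells of several rules or with thinned sums, and 2 at 1000 UMIs. Macrophages had 1 without a filter, without doublets or without cells of several rules. With 1 library left out the counts were 1 to 2 in basal, 0 to 1 in fibroblast, 0 to 1 in macrophage and 3 to 6 in proximal cells. For differences, thinned sums left 1 in basal minus luminal, 1 in proximal minus basal and 1 in macrophage minus luminal. DESeq2 left 2 in proximal minus luminal and 1 in macrophage minus luminal, and cells of several rules left out 1 in the latter. With 1 library left out these counts ran from 1 to 4 (basal minus luminal), 1 to 3 (proximal minus luminal), 1 to 3 (proximal minus basal) and 0 to 1 (macrophage minus luminal).

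Libraries with the same replicate number did not deviate together (r from -0.05 to 0.02), so the numbers were not taken as pairs. With the replicate block 442 genes passed in basal, 26 in macrophage and 614 in proximal cells. Of the likeness ranks 13 of 27 held with a pseudocount of 10. Depth limits the sham basal, proximal and macrophage sums, where several genes had 0 to 3 counts.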
